A study of Mus musculus with 5 samples.

Results

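The 6 mouse genes of the platelet-derived growth factor (PDGF) family were followed through 5 RNA-seq libraries of mouse embryonic fibroblasts (MEFs, connective-tissue cells cultured from embryos). They are the 4 ligand genes Pdgfa, Pdgfb, Pdgfc and Pdgfd and the 2 receptor genes Pdgfra and Pdgfrb. They were chosen by name, each had 1 locus, and all 6 were found among 21372 gene symbols. The study asked how the TALE homeobox factors Meis1 and Prep1 (encoded by Pknox1) act in these cells. The empty vector line (EV), the Meis1 overexpressing line (M), the Prep1 overexpressing line (P) and the Meis1-Prep1 overexpressing line (MP) were all derived from Prep1 hypomorphic MEFs, in which the Prep1 allele is expressed at a reduced level. The fifth library came from wild-type cells (WT), whose label gives a Prep1 wild-type genotype and no vector. All cells were C57BL/6 MEFs at passage 30. The growth protocol, worded alike for every sample, gives Prep1 hypomorphic embryos at E14.5 as the source, which goes against the genotype label of WT. For WT, therefore, Prep1 genotype, line of origin and infection cannot be told apart.

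Each group held 1 library, so no difference below has a replicate check, no p-value is given, and a comparison concerns 2 libraries, not the conditions they stand for. Levels are in scaled units, FPKM (fragments mapped per kilobase of transcript, relative to library size), multiplied by a factor that puts each library's upper quartile at 10. Differences are log2((level + 1)/(level + 1)), which understates changes of low genes. A gene counted as apart when this was at least 1 in size (2-fold) and the gene reached 1 scaled unit in 1 of the 2 libraries. The scaling was needed because the upper quartile differed by up to 44.5-fold between libraries, being highest in M and EV. In those same libraries, olfactory and vomeronasal receptor genes (Olfr and Vmn, normally silent in fibroblasts) were above 0 in 70.0% and 99.9% of 1422 cases, against 10.9% to 17.1% in P, MP and WT. Meis1 followed the labels, being highest in M (16.8 scaled units) and MP (15.4), followed by WT (12.4), P (8.86) and EV (8.32). Its log2 ratio was 0.93 for M against EV and 0.74 for MP against P, both short of the 2-fold rule. Pknox1 did not follow the labels. It stood at 0.554 in the library labelled P and 0.569 in the library labelled MP, below EV (2.16), M (3.25) and WT (11.0). Every direction drawn from P or MP carries that limit. Of 12 fibroblast marker genes, 8 reached 5 units in each hypomorphic library and 9 in WT, among them Col1a1, Col1a2, Thy1 and Vim. None of 7 endothelial markers reached 1 unit in any library.

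PDGF ligands are secreted as disulfide-linked dimers that pair up receptor tyrosine kinases on the cell surface. PDGF-A and PDGF-C act chiefly through the alpha receptor (Pdgfra), PDGF-D chiefly through the beta receptor (Pdgfrb), and PDGF-B through both. PDGF-C and PDGF-D leave the cell in a latent form whose CUB domain proteases must remove. The family drives division and migration of mesenchymal cells. The alpha receptor is a usual marker of embryonic mesenchyme and fibroblasts, and the beta receptor of pericytes, vascular smooth muscle and fibroblasts.

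Only Pdgfra and Pdgfd passed the 2-fold rule in any comparison, so their promoters are shown. Both sequences are RefSeq windows of build GRCm38.p6, read 5′ to 3′ on the plus strand. The files' own build is mm9, and they hold no coordinates. Capitals mark TGACAG, the core hexamer bound by Meis and Prep proteins. The Pdgfra window was extended past the annotated start to the end of its hexamer.
Pdgfra, chr5:75152001-75152253: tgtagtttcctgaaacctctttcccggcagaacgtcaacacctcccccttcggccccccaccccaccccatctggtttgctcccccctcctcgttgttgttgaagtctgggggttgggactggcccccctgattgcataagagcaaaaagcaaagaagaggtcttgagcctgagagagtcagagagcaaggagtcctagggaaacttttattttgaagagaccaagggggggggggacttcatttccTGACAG
Pdgfd, chr9:6168236-6168485: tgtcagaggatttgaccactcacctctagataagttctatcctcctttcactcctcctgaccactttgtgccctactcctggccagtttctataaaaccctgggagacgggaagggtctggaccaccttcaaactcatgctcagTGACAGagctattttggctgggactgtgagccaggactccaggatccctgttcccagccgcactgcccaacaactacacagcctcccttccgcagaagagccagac
The search covered both strands of each 300-base window, which runs from 250 bases before the start to 50 bases from it. Windows of 4 of the 6 genes were searched, namely Pdgfa (at each of its annotated starts), Pdgfc, Pdgfd and Pdgfra. The selection left out the windows of 1 chromosome, for which no reason was recorded. Pdgfb and Pdgfrb were not searched, which that exclusion alone need not explain, so nothing is known here of their windows. TGACAG occurred once in Pdgfra, across the start itself, and once in Pdgfd, at positions -106 to -101 relative to it. It occurred in 19.2% of all 32851 promoter windows, and in no window of Pdgfa or Pdgfc. None of the searched member windows held the AP-1 site TGACTCA (5.2% of all windows) or the cyclic AMP response element TGACGTCA (1.79%). Neither of these contains the hexamer. These are letter matches in 1 annotated start region per window and do not show binding.

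Pdgfra, the alpha receptor, varied most among the 5 members that reached 5 units in any library. Its level was 11.8 scaled units in WT, 7.72 in MP, 6.54 in M, 5.78 in P and 2.56 in EV. EV was lowest and WT highest, with M, P and MP between them, but with libraries scaled to their median MP (1.97 against EV) lay above WT (1.80). Against EV the log2 ratio was 1.84 for WT, 1.29 for MP, 1.09 for M and 0.93 for P, where all 4 share 1 EV library. The member just inside the 2-fold rule in a hypomorphic comparison was thus Pdgfra in M, and the one just outside was Pdgfra in P. On the deposited values without scaling, Pdgfra was instead lower than EV in P (-2.56), MP (-2.25) and WT (-1.59), while the median gene stood at -3.36, -3.44 and -3.21 there. Set against P, Pdgfra was 0.36 higher in MP and 0.91 higher in WT, both short of the 2-fold rule. Without the added 1, its level in WT was 2.03 times that in P, and its level in P 2.26 times that in EV. MP exceeded M by 0.21.

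Rank within a library does not depend on its scale. Among genes reaching 1 FPKM in at least 1 library, Pdgfra lay at percentile 54.4 in EV, 60.8 in P, 63.5 in M, 66.8 in MP and 85.8 in WT. The order of the libraries was the same as by level, and the step from MP to WT was wider than the whole spread of the hypomorphic lines. Rank still depends on how levels are spread in each library. Pdgfrb was lower in WT (11.9) than in MP (12.7), yet lay at percentile 86.5 in WT against 82.8 in MP. The part of that spread in the step of Pdgfra was not tested. The beta receptor gave a reference of the same family within each library. The ratio of Pdgfra to Pdgfrb was 0.28 in EV, 0.457 in P, 0.609 in MP, 0.623 in M and 0.993 in WT. By deposited FPKM, the alpha receptor was therefore level with the beta receptor in WT and below it in each hypomorphic library. High values are compressed, the 99th percentile of genes in WT being 1.73 times the upper quartile. The ratio of FPKM need not be the ratio of transcripts.

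**Figure D1:**
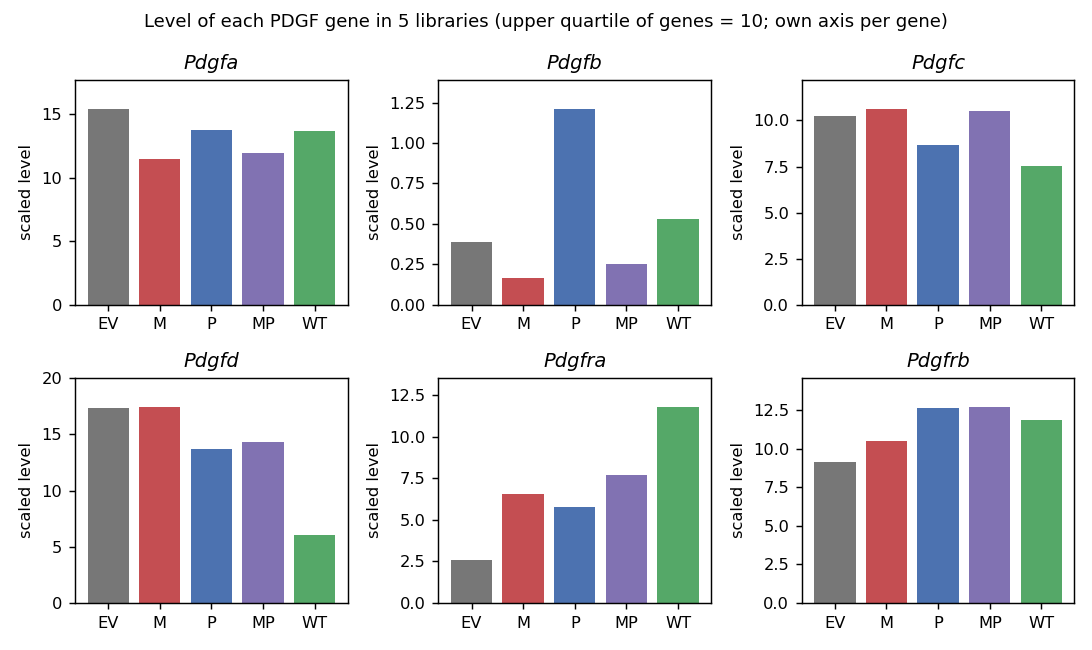
Scaled level (upper quartile of genes set to 10) of each PDGF gene in the libraries EV, M, P, MP and WT, 1 bar per library and no error because each group held 1 library. Each panel has its own axis from 0. Pdgfra is lowest in EV (2.56) and highest in WT (11.8), Pdgfd is lowest in WT (6.06), and without scaling Pdgfra in P, MP and WT would lie below EV.

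Added Meis1 could be read between libraries without and with the Prep1 label, which Pknox1 goes against. Pdgfra was higher in M than EV by 1.09, and in MP than P by 0.36. The Prep1 label could be read likewise, with 0.93 for P against EV and 0.21 for MP against M. The larger value was the one that used EV. The difference of 0.72 is the same in both readings by arithmetic, as they use the same libraries. The readings are therefore not separate observations, and the difference was not tested. The other receptor, Pdgfrb, differed less between libraries. It stood at 12.7 in MP and P, 11.9 in WT, 10.5 in M and 9.14 in EV, so EV was again lowest. Its largest ratio to EV was 0.43, in MP and in P, and its highest level was 1.39 times its lowest. Among the ratios of all kept genes, this lay at percentile 97.4 in MP and 95.1 in P. Levels near the upper quartile are compressed, so small ratios there do not show that Pdgfrb was stable. The range of Pdgfrb over the libraries, 0.43 on the log2 scale, was at percentile 57.1 of 9443 genes at 5 units or more in any library, against percentile 96.1 for Pdgfra (1.84) and 93.6 for Pdgfd (1.38).

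Pdgfd, the ligand of the beta receptor that needs proteolytic release, was high in every hypomorphic line and lower in WT. It stood at 17.4 scaled units in M, 17.3 in EV, 14.3 in MP and 13.7 in P, and at 6.06 in WT. The hypomorphic libraries lay within 1.27-fold of each other, and WT lay below all 4. The log2 ratio of WT was -1.37 to EV and -1.06 to P. In rank, Pdgfd moved from between percentile 89.6 and 97.4 in the hypomorphic lines to 59.1 in WT. Pdgfc, the related latent ligand of the alpha receptor, moved little: it stood at 10.6 in M, 10.5 in MP, 10.3 in EV, 8.69 in P and 7.55 in WT. WT was lowest here too, by 0.40 against EV. The ratio of Pdgfd to Pdgfc was 0.803 in WT, against 1.36 in MP, 1.58 in P, 1.64 in M and 1.69 in EV. WT was the library in which the order of these ligands turned.

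**Figure D2:**
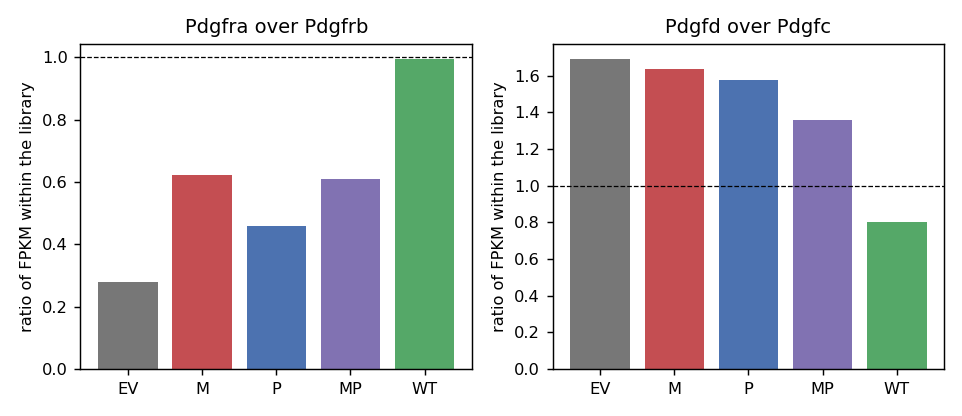
Ratios of deposited FPKM within each library, which no scaling between libraries can change: Pdgfra over Pdgfrb (left) and Pdgfd over Pdgfc (right), 1 library per bar, with a dashed line at equal levels. WT has the highest receptor ratio (0.993) and the lowest ligand ratio (0.803), and EV the lowest receptor ratio (0.28).

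Pdgfa, the main long-known ligand of the alpha receptor, was high in all libraries. It stood at 15.4 scaled units in EV, 13.7 in P, 13.6 in WT, 11.9 in MP and 11.4 in M. M and MP, which carry added Meis1, were the lowest, with log2 ratios of -0.40 for M against EV and -0.19 for MP against P. With libraries scaled to their median the direction turned in MP, to 0.19 against P and 0.07 against EV. Its rank showed the same split, with percentiles 78.4 (M) and 79.8 (MP) below 91.5 (EV), 93.4 (P) and 94.9 (WT). Rank also depends on how levels are spread in a library: at 12.7, Pdgfrb lay at percentile 82.8 in MP and 88.0 in P. Neither ratio neared 2-fold, and 9.3% of the kept genes in M against EV and 48.2% in MP against P lay at least as far from 0.

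Pdgfb, the ligand that binds both receptors, was the lowest member. It stood at 1.21 scaled units in P, 0.53 in WT, 0.389 in EV, 0.25 in MP and 0.167 in M. P was highest and the only library above 1 unit, so Pdgfb was kept only in comparisons with P. Its log2 ratio was 0.67 for P against EV, -0.82 for MP against P and -0.53 for WT against P. Because most of its levels lie below the pseudocount of 1, these ratios grow with a smaller one: with 0.1 they were 1.42, -1.90 and -1.06. In EV, 23.1% of the Olfr and Vmn genes had a level at or above that of Pdgfb, and in M 52.5% did. In P, MP and WT the shares were 0.281%, 1.13% and 0.703%. In M, Pdgfb was therefore below the median of these normally silent genes (0.191). In EV it was above their median (0.282) but below their 95th percentile (0.565), so within their range. In P, MP and WT it was above the level of nearly all of them.

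**Figure D3:**
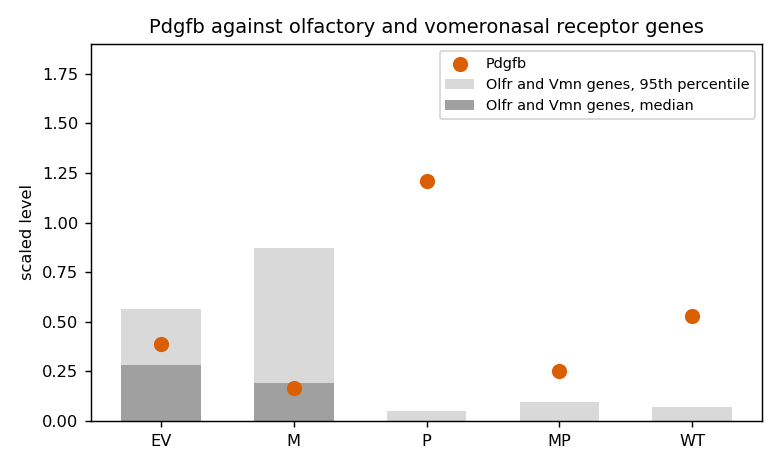
Scaled level of Pdgfb (orange points) in each library beside the median (dark bars) and the 95th percentile (light bars) of 1422 olfactory and vomeronasal receptor genes. Pdgfb lies below the 95th percentile in EV and M and above it in P, MP and WT, with its highest level in P (1.21).

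Counted over the family, 1 of 5 kept members was at least 2-fold higher in M than EV (Pdgfra), where 0.296% of all 11144 kept genes were, and 0 of 5 lower, beside 0.628%. In P against EV it was 0 of 6, beside 0.654% higher and 1.85% lower of all kept genes. In MP against EV it was 1 of 5 higher (Pdgfra), beside 0.208%, and 0 of 5 lower, beside 2.05%. In WT against EV, 1 of 5 was higher (Pdgfra, beside 6.31%) and 1 lower (Pdgfd, beside 3.2%). In WT against P, 1 of 6 was lower (Pdgfd, beside 1.91%) and 0 of 6 higher (beside 6.41%). MP differed from M in 0 of 5, where 0.23% of all kept genes were higher and 1.28% lower, and from P in 0 of 6, where 0.251% were higher and 0.761% lower. Comparisons with EV share that library, so the Pdgfra counts against EV are not separate evidence. The median ratio of the kept members against EV was -0.16 for WT, 0.03 for MP, 0.14 for P and 0.05 for M, beside -0.07, -0.04, -0.05 and -0.01 over all kept genes.

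**Figure D4:**
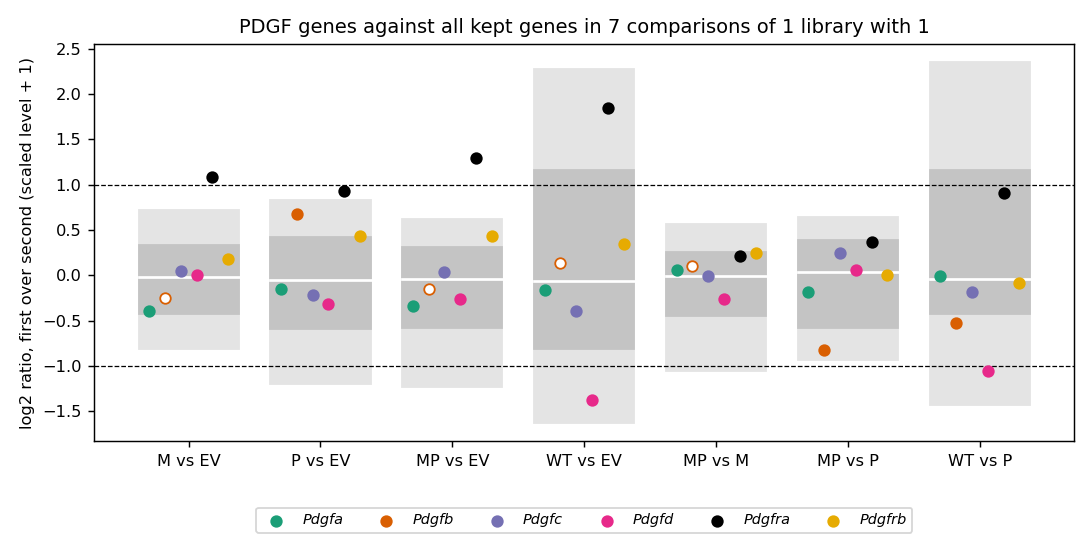
Log2 ratio of scaled level + 1 for each PDGF gene (points, open where below the level minimum) in 7 comparisons of 1 library with 1. Dark and light bands hold the 5th to 95th and the 1st to 99th percentile of all kept genes, white lines are their medians and dashed lines mark 2-fold. Pdgfra lies above the 99th percentile against EV in M, P and MP, while on unscaled values it would be lower than EV in P, MP and WT, as nearly all genes would.

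The authors' deposited tables, which compare the values without this scaling, gave no test of any of the 6 genes in M, where 5 carried the test status FAIL and Pdgfb the status NOTEST. The members they did test were 4 in WT, 2 in MP and 4 in P, and each was marked significant and lower than EV. In the same tables, 96.5% of the tested single-gene loci in WT, 99.2% in MP and 98.7% in P were marked lower. Pdgfa and Pdgfrb carried the status FAIL in all 4 of the authors' deposited tables.

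Genes with the most similar course over the 5 libraries were found by the root mean square difference between mean-centred log2(level + 1) profiles. This is a description over 5 points. Pdgfra had no close neighbour: the nearest were Mest (0.24), an imprinted gene of growing mesenchyme, Etv1 (0.252), an ETS transcription factor, and Cxadr (0.252), a cell adhesion receptor. Mest stood at 7.86 in WT, 4.21 in MP, 3.41 in P, 3.36 in M and 2.28 in EV. Like Pdgfra it was lowest in EV and highest in WT, but with a smaller step from EV to M. Pdgfd lay nearest to the interferon-induced gene Ifit1 (0.0593), which stood at 5.18 in WT and between 11.9 (P) and 15.2 (EV) in the hypomorphic libraries, and to the formin gene Fhod3 (0.0835) and Zfp608 (0.106). Pdgfb lay nearest to Spsb1 (0.0685), Vegfc (0.0738) and Slc22a27 (0.082), each highest in P. Most levels of Pdgfb lie below the pseudocount of 1, and those in EV and M lie within the range of normally silent genes. The likeness of Pdgfb to Spsb1, Vegfc and Slc22a27 therefore rests largely on P. Pdgfc followed a course shared by many genes, with 2102 of 9034 within 0.1 and G3bp2, Snx17 and Pcm1 nearest. For Pdgfa the nearest were Atad3a, Cxx1a and Pafah1b3, and for Pdgfrb they were Npr3, Depdc1b and Dtd1, with 273 and 121 genes within 0.1.

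Among the genes listed as processing PDGF or as its partners outside the cell, Pdgfrl held the widest ratio of all 5 gene lists. Of 15 such genes listed, 13 had a locus of their own. Pdgfrl, which encodes a receptor-like protein without a kinase domain, stood at 10.1 scaled units in WT and at 0.999 in M, 0.962 in MP, 0.863 in EV and 0.528 in P. It was on in WT and at or under 1 unit in all hypomorphic libraries (log2 2.57 against EV and 2.86 against P). Pcsk6, a proprotein convertase of the group that cuts PDGF precursors, stood at 7.42 in P, 6.13 in WT and 4.79 in MP, and at 1.80 in M and 1.56 in EV. Its ratios to EV were 1.72 for P, 1.48 for WT and 1.18 for MP, and MP exceeded M by 1.05. Pcsk6 was thus low in EV and M, the libraries in which most Olfr and Vmn genes were above 0. The part of that split in the Pcsk6 result was not tested. Against EV, Pdgfrl and Pcsk6 made up all that passed 2-fold in this list. These were 1 of 10 kept in P (beside 0.654% of all kept genes), 1 of 10 in MP (beside 0.208%) and 2 of 11 in WT (beside 6.31%). All were higher, with 0 of 10 in M (beside 0.296%). Plat, the protease that activates PDGF-C, stood at 15.8 in EV and 10.0 in WT (-0.61), and Plau, which activates PDGF-D, at 15.8 and 12.6. Sparc, which binds PDGF-B, was at 15.6 in EV and 9.84 in WT (-0.62). The list's median ratio to EV was -0.42 for WT, -0.27 for P, -0.24 for M and -0.18 for MP. Over all kept genes these medians were -0.07, -0.05, -0.01 and -0.04. Against P the list's median for WT was -0.09, beside -0.04 over all kept genes. Plat stood at -0.25 there, Plau at -0.07 and Sparc at -0.06.

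Signalling genes inside the cell were measured next. Of 33 adaptor, kinase and effector genes listed, 26 had a locus of their own and all 26 were kept. Of these 26, 0 passed the 2-fold rule in any of the 7 comparisons. In the same comparisons, 0.208% to 6.41% of all kept genes were higher and 0.628% to 3.2% lower. Their medians lay between -0.13 and 0.13. The widest ratios against EV were in WT: Mapk3 (ERK1) at 0.74, the adaptor Gab1 at 0.71, Stat5a at 0.69 and the kinase Akt1 at -0.66. Of 13 kept genes that dampen receptor signals, Spry1, a Sprouty inhibitor of the MAP kinase route, passed 2-fold. It stood at 11.2 in WT, 8.05 in M, 6.34 in MP, 5.05 in EV and 3.87 in P, which gave 1.01 for WT against EV and 1.32 against P. That is 1 of 13 higher in each, beside 6.31% and 6.41% of all kept genes. Spry1 was also higher in M than EV (0.58) and in MP than P (0.59), the pairs that differ by added Meis1, short of 2-fold. Of 18 genes induced by PDGF in fibroblasts, Fosb, an AP-1 subunit, was 2-fold lower in P than EV (2.12 against 5.74, -1.11, beside 1.85% of all kept genes), and Egr2, an early growth response factor, 2-fold higher in WT (7.18 against 2.03, 1.43, beside 6.31%). Both Ccl2 (-0.65) and Fosb (-0.98) were lower in WT than EV without passing the 2-fold rule, which understates changes of low genes such as Fosb. The median of the 18 targets against EV was -0.29 for WT, -0.16 for P, -0.15 for MP and -0.14 for M. Over all kept genes these medians were -0.07, -0.05, -0.04 and -0.01. Against P the targets' median for WT was -0.11, beside -0.04 over all kept genes.

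**Figure D5:**
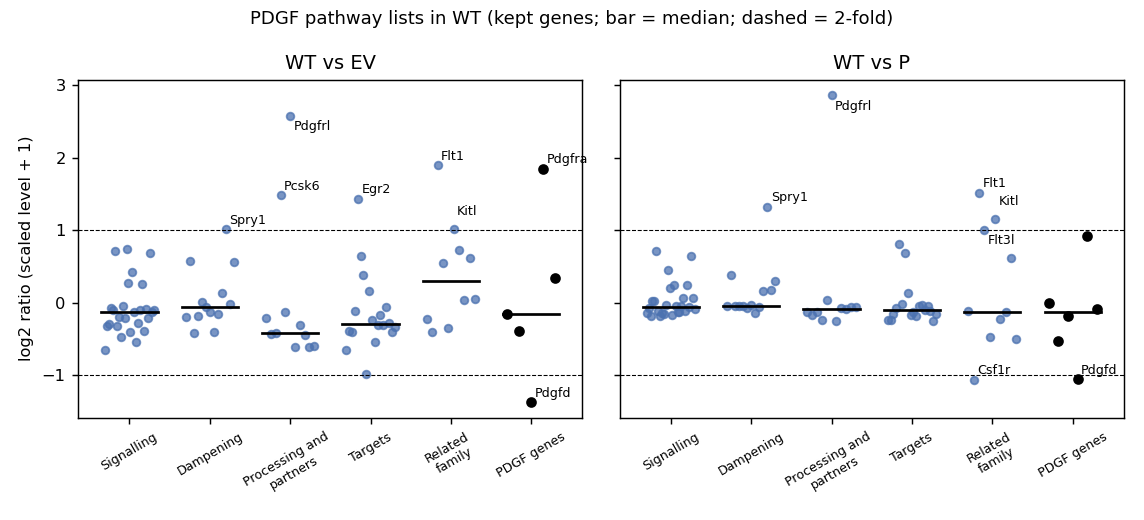
Log2 ratio of scaled level + 1 in WT against EV (left) and against P (right) for the kept genes of each PDGF pathway list and for the PDGF genes, with medians as bars and 2-fold as dashed lines. Pdgfrl (2.57 and 2.86) lies above Pdgfra (1.84 and 0.91), no signalling gene passes 2-fold, and Pdgfd is the only PDGF gene at least 2-fold lower in both.

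Markers of other cells that carry PDGF receptors were measured beside the receptors. In bulk RNA, a change in the share of cells of a type and a change in RNA per cell cannot be told apart. The summed level of 12 pericyte and smooth muscle markers was 61.3 in WT, 60.2 in EV, 54.0 in MP, 52.6 in M and 52.3 in P. The sums of EV and WT were close, but members went both ways. Acta2 (9.64 in EV and 16.1 in WT) and Anpep (0.258 and 3.78) were higher in WT. Tagln (11.4 and 5.78), Cnn1 (14.2 and 8.20) and Mcam (16.1 and 11.7) were lower. Against P, the ratios of WT were 0.48 for Acta2, 1.94 for Anpep, -0.17 for Tagln, -0.26 for Cnn1 and -0.12 for Mcam. Cspg4 (NG2), which fibroblasts can also express, was like the receptor lowest in EV and highest in WT, at 12.7 in WT, 9.85 in P, 7.01 in MP, 6.77 in M and 4.94 in EV, while the smooth muscle myosin Myh11 was at 0.303 or less throughout. Of 4 oligodendrocyte precursor markers only Cspg4 reached 1 unit, and Olig1 was at 0 in P, MP and WT. Among fibroblast markers Fap stood at 3.50, Dpt at 5.96 and Lum at 1.92 in WT, against 0.98 or less in each hypomorphic library, as Pdgfra was higher there. Col3a1 was instead lower in WT (5.46) than in EV (12.5), as were Col1a1 (-0.74), Thy1 (-0.47), Vim (-0.46) and Col1a2 (-0.33). Against P, WT was lower in Col3a1 (-1.01) and Col1a1 (-0.33), but differed little in Thy1 (-0.11), Col1a2 (-0.03) and Vim (0.06). The part of these genes in the Pdgfra result was not tested.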

How the data were processed

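Total RNA of 5 MEF cultures, 1 library each, was sequenced. Build mm9 and the tools TopHat, Cufflinks and Cuffdiff are listed in the submitters' processing notes. Versions, annotation and library normalization are not given in the sources used here. The authors deposited 4 tables of FPKM, each setting EV against 1 other library over 61082 loci, with p-values and q-values from the authors' test of 1 library against 1, per the file headers. A locus was marked significant at q under 0.05. Loci without a symbol (37277) and loci joining genes (911) were left out. Where a symbol had several loci, the one with the highest mean log2(level + 1) was used. Genes with near-identical copies are uncertain, and strand was not considered.

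Each library was scaled so that the upper quartile of its single-gene loci became 10, taken over the 22338 that reached 1 FPKM somewhere in the series, with EV from the M table. Ratios used a pseudocount of 1. Scaling and the 2-fold rule were tested on simulated libraries, each made from the P values times a constant with small noise. These lacked the background in normally silent genes seen in EV and M. The simulation therefore cannot show that the scaling suits those libraries. No counts are given, so depth is unknown and no interval could be made. At loci without a symbol the commonest ratio of M to MP was 164, against a level ratio of 44.5, so that low values of M may rest on fewer reads than those of MP. No clear step was found for EV. The 99th percentile of genes was 1.73 to 2.01 times the upper quartile, so differences between well-expressed genes are compressed. Scaling was set across separately deposited tables.

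The named genes were all 6 members, the 3 nearest profiles per member among genes at 5 units or more in any library (names starting with Gm, Mir, Snor, LOC or n-R or ending in Rik left out), and list members past 2-fold or with the largest ratios. Others were named for context with their values known. The members and the 5 gene lists were chosen with earlier results of these data known. Promoters came from the RefSeq table of GRCm38.p6. Python 3.11.15, pandas 2.3.3 and numpy 2.4.6 were used. Alternatives were a pseudocount of 0.1, level minimums of 0 and 5, scaling to the median, no scaling, the EV column of each table, summed loci and, added after seeing the data, scaling over 1 locus per symbol and quantile normalization.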

Additional observations from a re-analysis of the deposited data

Results flagged for a closer look

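Pdgfa, the ligand of the alpha receptor, was singled out because its ratio for the Prep1 label had opposite signs between libraries without and with added Meis1: -0.15 for P against EV and 0.055 for MP against M. Each side rests on 2 libraries, the difference was not tested, and it was 1 of 12 such pairs of ratios looked at. Both ratios are small beside the 2-fold rule, and under quantile normalization both were above 0, at 0.050 and 0.037.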

How the results depend on the processing

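The counts of members past 2-fold were within 1.5 times of those reported with no level minimum, with a minimum of 5, with the EV column of each table, with summed loci and with scaling over 1 locus per symbol. Without scaling, where nearly all genes shifted, they were 5 (all higher) in M against EV, and 6 (all lower) in P, MP and WT against EV and in MP against M. Pdgfra then reversed, to -2.25 in MP and -1.59 in WT against EV. With a pseudocount of 0.1 the counts were 2 in P against EV, 1 in MP against P and 3 in WT against P, as Pdgfb and Pdgfra passed 2-fold, and scaling to the median gave 2, 1 and 2. That scaling also shrinks the pseudocount relative to the levels, and under it the median kept gene stood at -0.30 in P and -0.68 in WT against EV, over a larger kept set. Quantile normalization gave 2 in WT against P, where Pdgfra stood at 1.06. Apart from the unscaled values, 224 of 234 member ratios kept their side of 2-fold, and the other 10 passed it in the direction reported. Summed loci could not change a count or ratio, as each member had 1 locus, and the EV columns gave nearly the same ratios. Those settings supply 42 and 24 of the 224 and are no check. No paired analysis was possible because each group held 1 library, and leaving out a replicate was not possible either. Depth is unknown.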

Other observations

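Relatives of the PDGF family, the VEGF ligands and receptors and the other class III receptor kinases, were measured with 14 of 16 listed genes having a locus of their own. Flt1, the VEGF receptor that also acts as a decoy, stood at 14.8 scaled units in WT and at 4.54 in MP and P, 4.46 in M and 3.26 in EV. Kitl, the stem cell factor that binds Kit, stood at 11.8 in WT and at 6.56 in M, 5.58 in MP, 5.33 in EV and 4.74 in P. Both were at least 2-fold higher in WT than EV, as 2 of 10 kept relatives, beside 6.31% of all kept genes. Against P, 3 of 10 were higher (Flt1, Kitl and Flt3l, beside 6.41%) and 1 lower (Csf1r, beside 1.91%). Csf1r, the receptor of macrophage colony-stimulating factor, stood at 3.71 in MP, 3.63 in M, 3.54 in P, 1.89 in EV and 1.17 in WT. Its ligand Csf1 was at 21.7 or more in every library. Kit itself and Flt3 were under 0.4 units throughout.

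Vegfc, a lymphatic growth factor, was highest in P (15.3 scaled units), as Pdgfb was, against 10.6 in WT, 10.2 in EV, 9.57 in MP and 7.74 in M. Pgf, placental growth factor, was also highest in P, at 3.92 against 3.23 in WT, 2.19 in MP, 1.56 in EV and 1.26 in M. Neither gene passed the 2-fold rule in any of the 7 comparisons, and that rule understates changes of low genes such as Pgf.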
